A study of Homo sapiens with 12 samples.

Results

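The ABC transporter genes of Huh7 cells were taken as every gene of the count table whose symbol is ABC, a subfamily letter from A to G and a number. The rule found 54 entries among 63677. Of these, 46 were genes on the primary chromosomes and 8 were copies on alternate assembly sequences (among them 6 of ABCF1 and 1 of ABCB11) with no count in any sample. The members reached the count filter, 3 or more samples with 10 or more counts, in 36 cases, and these 36 were tested among 17092 genes. The remaining 10 primary members are given by their counts. Huh7 is a human hepatoma cell line, and all values come from this single line. RNA was sequenced after 6 h from 3 samples each of untreated cells, which received medium only, of cells treated with graphene oxide (GO) at 400 µg/mL, of cells treated with GO conjugated to ginsenoside Rg3 (GO-Rg3) at 400 µg/mL, and of cells treated with the same conjugate loaded with doxorubicin (GO-Rg3-DOX) at 100 µg/mL. Ginsenoside Rg3 is a saponin of ginseng, and doxorubicin is an anthracycline that binds DNA. Because the dose of GO-Rg3-DOX differed from that of GO and GO-Rg3, its levels are set beside theirs without a test, and no sample of free doxorubicin was analysed here.

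ABC proteins bind and hydrolyze ATP, and most of them use it to move lipids, bile constituents, drugs, heme precursors, peptides or ions across a membrane. In hepatocytes, members of the B, C and G subfamilies sit in the canalicular and sinusoidal membranes, where they export bile acids, phospholipids, sterols, conjugated bilirubin and foreign compounds. The same pumps are known from tumour cells for exporting cytostatic drugs, and doxorubicin is a substrate of several of them, whereas the E and F subfamilies have no membrane domains and act in translation.

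The samples held 27802871 to 38877420 counts each, so that 1 CPM, the unit of the normalized read counts, stood for 24.3 to 42.5 counts. Mitochondrially encoded genes took 5.31% to 6.28% of the counts in untreated cells, 6.89% to 7.42% after GO-Rg3, 12.1% to 24.1% after GO and 12.8% to 19.4% after GO-Rg3-DOX. The highest shares were those of GO replicate 1 and GO-Rg3-DOX replicate 1, which also stood apart from the other samples of their groups, and the part of this share in the results was not tested. All 8 hepatocyte and hepatoma markers were expressed, and their summed level did not overlap between untreated, GO- and GO-Rg3-DOX-treated samples. It was 23137 to 23270 CPM without treatment, 14466 to 17532 CPM with GO, 17877 to 21436 CPM with GO-Rg3 and 30215 to 35485 CPM with GO-Rg3-DOX, and the part of this in the results was not tested. Single markers differed in direction, so the sum does not stand for each of them. With GO the mean of AFP fell from 12287 to 5836 CPM, and that of HNF4A rose from 363 to 563 CPM. With GO-Rg3-DOX the mean of AFP was 14300 CPM and that of HNF4A 180 CPM. The 4 leukocyte markers summed to at most 3.81 CPM and the 4 endothelial markers to at most 0.70 CPM, with PECAM1 and KDR at 0. The 4 stellate and fibroblast markers summed to 3.70 to 5.54 CPM outside GO-Rg3-DOX-treated cells and to 10.5 to 14.2 CPM in them. The 3 cholangiocyte markers, with KRT7 at 0, ranged in sum from 112 to 129.8 CPM without treatment, from 222 to 325 CPM with GO, from 157 to 203 CPM with GO-Rg3 and from 162 to 171 CPM with GO-Rg3-DOX. Fewer cells of a kind and less RNA per cell cannot be told apart in such bulk samples. The labels do not say whether replicates came from separate cultures, so the p-values may measure technical spread.

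In untreated cells the drug pump ABCB1 had the highest level of all members. Levels were compared between genes as CPM per kilobase (kb) of exon. The length counts all annotated exons of a gene together, so the order between genes depends on the annotation. On this scale ABCB1 stood at 46.2 ± 0.40 (SD, n = 3). The translation factor ABCF1 followed at 41.9 ± 0.81, and ABCF2 and the conjugate pump ABCC2 came next at 27.5 ± 0.55 and 27.1 ± 1.78. The samples of ABCF2 and ABCC2 overlapped, as did those of ABCE1 (20.5 ± 0.64) and ABCF3 (19.99 ± 0.58) after them. The peroxisomal ABCD3 (17.4 ± 0.50), the mitochondrial ABCB10 (12.2 ± 0.34) and the pumps ABCC4 (8.79 ± 0.22), ABCC3 (7.40 ± 0.62) and ABCC5 (6.52 ± 0.13) followed without overlap between neighbours. At the other end, the bile salt export pump ABCB11 had 0.060 ± 0.034 CPM per kb, and the sterol transporters ABCG5 and ABCG8 had 0.42 ± 0.11 and 0.25 ± 0.0038. The mRNA of ABCB11 was thus scarce in this hepatoma line, with 0.291 to 0.767 CPM in untreated cells.

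GO-treated cells overexpressed 4 of the 36 tested members and under-expressed 6, at adjusted p below 0.01. The members that rose were the pump ABCC1, the porphyrin transporter ABCB6, the lysosomal peptide transporter ABCB9 and the cholesterol exporter ABCA1. Those that fell were the pumps ABCC2, ABCC4 and ABCC5, the mitochondrial ABCB10, the peroxisomal ABCD3 and the ribosome recycling factor ABCE1. Among all tested genes, 12.1% rose and 15.4% fell, so the members' shares of 11.1% and 16.7% were close to the background. None of the members changed more than 2-fold by edgeR or DESeq2 at this threshold, against 6.47% of all tested genes, and 21 of the 36 had an unadjusted p below 0.05. The share of all tested genes at that unadjusted level is not given here for any comparison, so nothing is read from such counts. The median log2 fold change was 0.08 over the members and 0.01 over all tested genes. Without GO replicate 1 the counts were 3 higher and 6 lower. The count of higher members was 1 without untreated replicate 1 and 2 without untreated replicate 2, untreated replicate 3 or GO replicate 3. Library totals alone ended the calls of ABCA1, ABCB6, ABCB9 and ABCB10, and a fit of the 6 samples of this comparison those of ABCA1, ABCB10 and ABCC4.

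GO-Rg3-treated cells had no member past the threshold against untreated cells in either direction by edgeR or by DESeq2, and 0 of 36 had an unadjusted p below 0.05. Few genes passed at all in this comparison, 0.0585% of those tested in the higher and 0.105% in the lower direction, with 0.0585% past 2-fold, so a count of 0 does not set the members apart. The fitted log2 fold changes of the 8 drug pumps had 95% intervals that lay between -0.40 and 0.34. For the 25 members of at least 5 CPM in untreated cells they lay between -0.50 and 0.71, and the interval stayed within 2-fold for 32 of all 36. The median log2 fold change was -0.01 over the members and -0.00 over all tested genes.

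GO-Rg3-DOX-treated cells overexpressed 13 members and under-expressed 4, but with scaling by library totals alone the counts were 3 and 6, and 10 of the 13 rises were no longer called. Members that rose included the pumps ABCB1, ABCC1, ABCC3 and ABCC5, the sterol transporter ABCG8, the A subfamily members ABCA2, ABCA3, ABCA4, ABCA5 and ABCA7, the mitochondrial ABCB8, and ABCC10. Those that fell were ABCA1, ABCB6, ABCE1 and ABCF3. Among all tested genes, 25.5% rose and 30.5% fell, and the members' shares were 36.1% and 11.1%. With library totals alone, 2152 of the 17092 tested genes were higher and 7292 lower. More than 2-fold changes were found for 6 members (5 higher, 1 lower) of 36, or 16.7%, against 30.8% of all tested genes. The median log2 fold change was 0.22 over the members and -0.06 over all tested genes, and library totals alone moved the latter to -0.47. Without GO-Rg3-DOX replicate 1, which had the lowest scaling factor, 12 members were higher and 2 lower. Leaving out untreated replicate 3 also gave 2 lower members.

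GO-Rg3 against GO, compared at equal dose, gave 5 higher members (ABCC2, ABCC4, ABCC5, ABCD3 and ABCE1) and 2 lower ones (ABCC1 and ABCB6). This comparison uses the same GO samples as that of GO against untreated cells and is not independent of it, so the values of all groups stand side by side for each member. Of all tested genes, 7.33% were higher and 6.25% lower in this comparison by edgeR, and the members' shares were 13.9% and 5.56%. DESeq2 passed 7 higher and 2 lower members, beside 1948 higher and 1349 lower of 17092 genes. The members it added were ABCB1 (log2 fold change 0.40, adjusted p = 0.0023) and ABCB10 (0.62, adjusted p = 0.0074). By edgeR their adjusted p was 0.012 and 0.023. None of the members changed more than 2-fold by edgeR or DESeq2 at this threshold, against 2.77% of all tested genes, and 17 of 36 had an unadjusted p below 0.05, again without a share over all genes. The median log2 fold change was -0.11 over the members and -0.02 over all tested genes. These counts rested on single samples more than the others did, with 3 higher and 0 lower members without GO replicate 3, 2 and 1 without GO-Rg3 replicate 2, 1 and 1 without GO-Rg3 replicate 3, and 6 and 1 without GO replicate 2. A fit of the 6 samples of this comparison alone left 1 higher member, ABCC2, and 0 lower ones. Library totals alone ended the calls of ABCC1, ABCB6 and ABCD3.

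**Figure D1:**
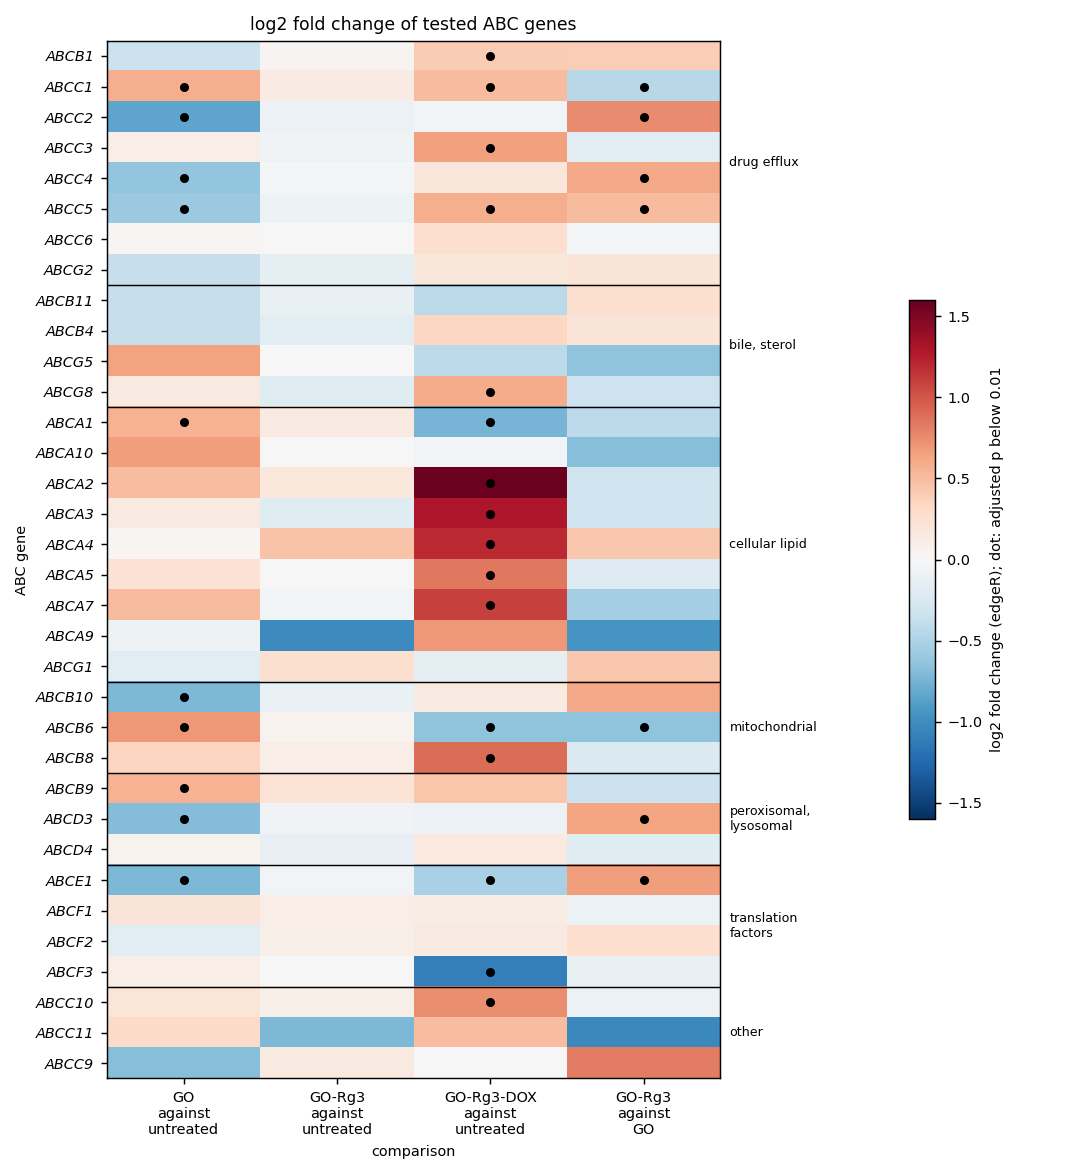
Heat map of the fitted log2 fold change of 34 of the 36 tested ABC genes (y axis, grouped by role) in the 4 comparisons (x axis), where red is higher and blue lower in the condition named before "against", and a dot marks an adjusted p below 0.01. The GO column holds 10 dots, the GO-Rg3 column 0, the GO-Rg3-DOX column 16 and the GO-Rg3 against GO column 7 at the TMM scaling used. With library totals alone, 3 members were higher and 6 lower after GO-Rg3-DOX, beside 2152 higher and 7292 lower of 17092 tested genes.

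Among the drug efflux pumps, all 8 of which were tested, GO-treated cells under-expressed ABCC2, ABCC4 and ABCC5 and overexpressed ABCC1, and GO-Rg3-DOX-treated cells overexpressed ABCB1, ABCC1, ABCC3 and ABCC5. Shares over all tested genes were 12.1% higher and 15.4% lower after GO, and 25.5% and 30.5% after GO-Rg3-DOX. Counts among 8 genes do not set the pumps apart from such shares. Over the 8 pumps the median log2 fold change against untreated cells was -0.36 with GO, -0.04 with GO-Rg3 and 0.34 with GO-Rg3-DOX. The median over all tested genes was 0.01 with GO and -0.06 with GO-Rg3-DOX. Summed over the 8 pumps, the level per kb of exon was 105, 110.1 and 108.9 in the untreated samples, 71.9, 89.3 and 85.4 in the GO samples, 102.6, 112.3 and 105.8 in the GO-Rg3 samples and 137, 131 and 134 in the GO-Rg3-DOX samples. On this scale the GO samples were all below and the GO-Rg3-DOX samples all above the untreated ones, but with library totals alone the GO-Rg3-DOX mean of 109.6 ± 7.49 lay below the untreated 118.1 ± 3.52 (SD, n = 3). ABCB1 made up 42.3% to 43.6% of the sum in untreated cells and 42.1% to 46.5% in treated ones, a share that does not depend on the scaling. ABCC2 took 23.9% to 26.2% of the sum in the untreated samples, against 18.0% to 18.5% with GO, 22.6% to 24.7% with GO-Rg3 and 19.4% to 19.99% with GO-Rg3-DOX.

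**Figure D2:**
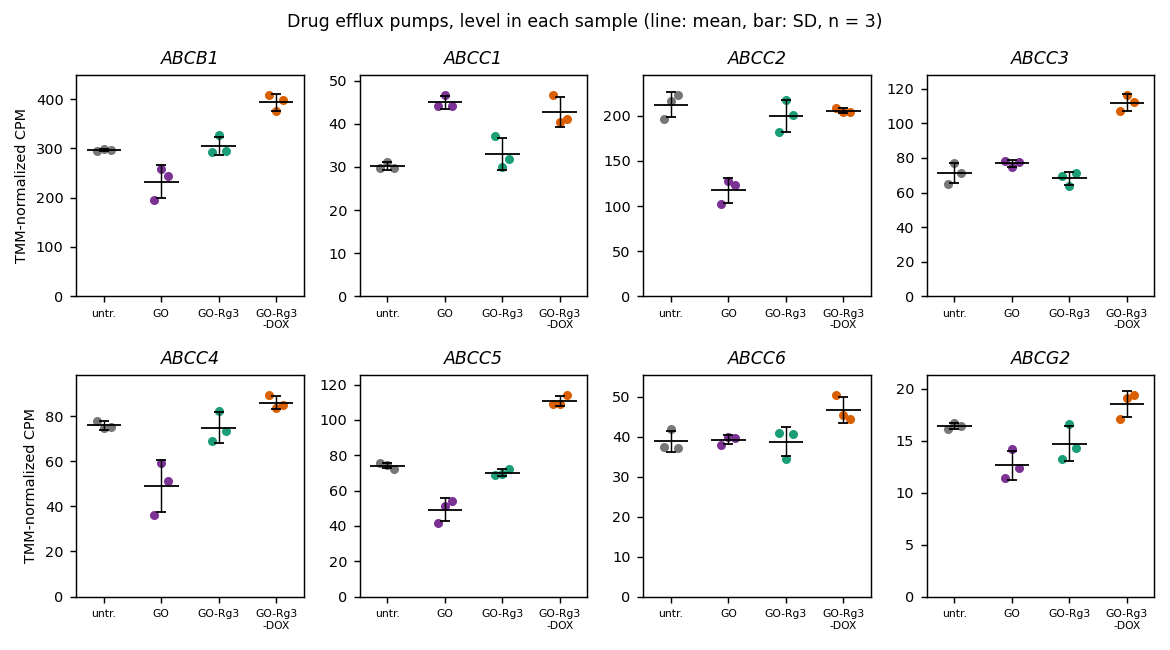
TMM-normalized CPM (y axis, from 0) of the 8 drug efflux pumps in each of the 3 samples of the 4 groups (x axis), with the mean as a line and the SD as a bar. The GO samples of ABCC2, ABCC4 and ABCC5 lie below all samples of the other groups, and the GO samples of ABCC1 lie above all untreated and GO-Rg3 samples.

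ABCB1 (P-glycoprotein, chr7:87132333-87342639, minus strand on GRCh37) is the pump best known for exporting doxorubicin and other hydrophobic drugs. Its level was 294, 299 and 297 CPM in the 3 untreated samples, 195, 258 and 243 CPM with GO, 293, 327 and 295 CPM with GO-Rg3 and 409, 375 and 398 CPM with GO-Rg3-DOX. All 3 GO-Rg3-DOX samples were above all others, and all 3 GO samples were below them. After GO-Rg3-DOX, ABCB1 rose by 0.41 on the log2 scale (SE 0.10, adjusted p = 0.0027), or 1.33-fold, whereas the GO samples did not pass the test by edgeR (adjusted p = 0.013) and passed by DESeq2 (adjusted p = 0.0098). The rise depended on the scaling, since with library totals alone the mean of ABCB1 was 324 ± 4.76 CPM without treatment against 322 ± 20.1 CPM with GO-Rg3-DOX (SD, n = 3). It also missed the threshold whichever untreated sample was left out, with adjusted p from 0.01 to 0.012, and with no filter on low counts (0.33 with adjusted p = 0.015).

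ABCC1 (MRP1, chr16:16042995-16237114, plus strand), which exports glutathione conjugates and, with glutathione, anthracyclines, was the pump that rose after both GO and GO-Rg3-DOX. It had 29.7, 31.2 and 29.7 CPM in untreated cells, 44.1, 46.6 and 44.2 CPM with GO, 37.1, 30.1 and 31.9 CPM with GO-Rg3 and 46.8, 40.4 and 41.2 CPM with GO-Rg3-DOX. The GO and GO-Rg3-DOX samples were all above the untreated and GO-Rg3 samples. ABCC1 rose by 0.58 on the log2 scale (SE 0.10, adjusted p = 0.00043) after GO and rose by 0.50 on the log2 scale (SE 0.10, adjusted p = 0.00044) after GO-Rg3-DOX. In GO-Rg3 against GO it fell by 0.45 on the log2 scale (SE 0.10, adjusted p = 0.005), which no longer passed without GO replicate 2, GO replicate 3, GO-Rg3 replicate 2 or GO-Rg3 replicate 3 (-0.54 to -0.38 over the 6 fits with a sample left out, adjusted p of the 4 from 0.015 to 0.029). Its share of the summed pump level per kb was 3.12% to 3.24% in untreated cells and 5.92% to 7.02% after GO.

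ABCC2 (MRP2, chr10:101542397-101612351, plus strand), the canalicular exporter of conjugated bilirubin and glutathione conjugates, showed the most marked fall of a pump after GO. Its level was 197, 217 and 223 CPM in untreated cells, 101.7, 128 and 123 CPM with GO, 182, 218 and 200.4 CPM with GO-Rg3 and 209, 204 and 204 CPM with GO-Rg3-DOX. The 3 GO samples lay below the other 9, which overlapped one another. After GO, ABCC2 fell by 0.85 on the log2 scale (SE 0.10, adjusted p = 2.9e-05), a 1.81-fold lower level, and in GO-Rg3 against GO it rose by 0.76 on the log2 scale (SE 0.10, adjusted p = 0.00016). Both calls held in every fit with a sample left out and in all 9 other settings tried.

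ABCC4 and ABCC5 were also under-expressed in GO-treated cells. ABCC4 (MRP4, chr13:95672089-95953729, minus strand), which exports cyclic nucleotides and bile acids, had 78.0, 74.5 and 74.99 CPM in untreated cells, 36.3, 59.1 and 51.2 CPM with GO, 68.8, 82.2 and 73.4 CPM with GO-Rg3 and 89.3, 83.6 and 84.9 CPM with GO-Rg3-DOX. ABCC5 (MRP5, chr3:183637722-183735727, minus strand), another exporter of cyclic nucleotides, had 75.5, 74.2 and 72.5 CPM, 41.8, 51.3 and 54.1 CPM, 68.7, 69.2 and 72.4 CPM and 108.97, 108.9 and 114 CPM in the same order. For both genes the GO samples were below all other samples, with GO replicate 1 the lowest. After GO, ABCC4 fell by 0.63 on the log2 scale (SE 0.14, adjusted p = 0.002), which was lost in a fit of the 6 samples compared (-0.62 with adjusted p = 0.013), and ABCC5 fell by 0.59 on the log2 scale (SE 0.10, adjusted p = 0.00028). In GO-Rg3 against GO, ABCC4 rose by 0.61 on the log2 scale (SE 0.14, adjusted p = 0.0048) and ABCC5 rose by 0.51 on the log2 scale (SE 0.10, adjusted p = 0.0018). The former missed the threshold without GO replicate 3, GO-Rg3 replicate 2 or GO-Rg3 replicate 3 (0.44 to 0.77 over all 6 such fits, adjusted p of the 3 from 0.015 to 0.019) and the latter without GO-Rg3 replicate 3 (0.49 with adjusted p = 0.012). After GO-Rg3-DOX, ABCC5 rose by 0.58 on the log2 scale (SE 0.10, adjusted p = 8.5e-05), with all 3 samples above all others, while ABCC4 was not past the threshold.

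ABCC3 (MRP3, chr17:48712138-48769614, plus strand), the sinusoidal exporter of glucuronides, passed in the comparison of GO-Rg3-DOX with untreated cells and in no other. It had 65.2, 77.0 and 71.3 CPM in untreated cells, 78.5, 74.5 and 77.5 CPM with GO, 69.6, 63.9 and 71.1 CPM with GO-Rg3 and 107, 116.6 and 112 CPM with GO-Rg3-DOX. The untreated samples overlapped those of GO and of GO-Rg3, and the GO-Rg3-DOX samples stood above all of them. ABCC3 rose by 0.65 on the log2 scale (SE 0.09, adjusted p = 1.3e-05) after GO-Rg3-DOX. With library totals alone, ABCC3, ABCC1 and ABCC5 kept a higher fitted level after GO-Rg3-DOX but none of them passed. The drug pump ABCG2 (BCRP) and ABCC6 (MRP6), which releases ATP from hepatocytes, did not pass in any comparison by edgeR. DESeq2 passed ABCC6 after GO-Rg3-DOX (log2 fold change 0.34, adjusted p = 0.0038, against 0.27 and 0.026 by edgeR). ABCG2 had 16.4 ± 0.275 CPM in untreated cells, 12.7 ± 1.39 CPM with GO, 14.7 ± 1.72 CPM with GO-Rg3 and 18.5 ± 1.28 CPM with GO-Rg3-DOX (SD, n = 3). ABCC6 had 38.8 ± 2.68, 39.2 ± 1.08, 38.7 ± 3.61 and 46.7 ± 3.25 CPM. The ABCC6 values are uncertain, since its near-identical pseudogenes ABCC6P1 and ABCC6P2 held 266 to 869 and 57 to 130 counts per sample beside the 970 to 1582 of ABCC6.

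Because ABCC2, ABCC4 and ABCC5 fell together after GO, the 250 bases before the start of each are shown, taken from RefSeq on GRCh38.p14 and written 5′ to 3′ on the strand of the gene. Capitals mark matches, on either strand, to the core of the xenobiotic response element (GCGTG), which the receptor AHR binds, and to the core of the antioxidant response element (TGANNNNGC), which NRF2 binds. The windows lie at chr10:99782390-99782639, plus strand for ABCC2, at chr13:95301452-95301701, minus strand for ABCC4 and at chr3:184017885-184018134, minus strand for ABCC5.
ABCC2: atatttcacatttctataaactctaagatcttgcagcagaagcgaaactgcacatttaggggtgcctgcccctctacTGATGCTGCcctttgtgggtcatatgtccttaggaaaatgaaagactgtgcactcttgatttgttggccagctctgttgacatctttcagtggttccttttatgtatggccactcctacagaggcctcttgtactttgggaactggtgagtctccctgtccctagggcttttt
ABCC4: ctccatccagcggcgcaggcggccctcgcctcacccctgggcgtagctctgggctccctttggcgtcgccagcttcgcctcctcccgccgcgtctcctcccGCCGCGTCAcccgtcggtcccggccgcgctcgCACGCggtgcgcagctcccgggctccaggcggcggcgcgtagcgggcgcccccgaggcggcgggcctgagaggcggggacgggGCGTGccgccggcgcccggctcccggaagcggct
ABCC5: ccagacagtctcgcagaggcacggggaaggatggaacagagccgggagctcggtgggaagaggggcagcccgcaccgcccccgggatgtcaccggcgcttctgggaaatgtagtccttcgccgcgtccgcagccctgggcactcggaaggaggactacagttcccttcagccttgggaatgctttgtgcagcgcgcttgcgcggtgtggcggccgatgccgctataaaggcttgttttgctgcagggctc
The ABCC2 window held 1 antioxidant core and 0 xenobiotic cores. The ABCC4 window held 1 antioxidant core and 2 xenobiotic cores, and the ABCC5 window held neither. GC content was 45.6% in the ABCC2 window, 80.4% in the ABCC4 window and 64.8% in the ABCC5 window. RefSeq start windows were given for 35 of the 46 primary members, some with several starts, 53 windows in all. The xenobiotic core was found in 39.6% of these and in 32.2% of 35116 windows of the same length over all genes, and the antioxidant core in 37.7% and 35.2%. These matches are letters in the sequence, and binding was not measured.

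Of the 4 bile and sterol transporters, 0 passed after GO, 0 after GO-Rg3 and 0 in GO-Rg3 against GO by edgeR, and 1 rose after GO-Rg3-DOX. Unadjusted p below 0.05 was reached by 2, 0 and 1 of them in the GO, GO-Rg3 and GO-Rg3 against GO comparisons and by 2 after GO-Rg3-DOX, and DESeq2 passed 1, 0, 0 and 2 of them in the same order. Of all tested genes, 12.1% rose and 15.4% fell after GO by edgeR, 25.5% and 30.5% after GO-Rg3-DOX, and 7.33% and 6.25% in GO-Rg3 against GO. Counts among 4 genes do not set this group apart from such shares. ABCG8 (chr2:44059081-44110127, plus strand), which pairs with ABCG5 to export sterols into bile, had 2.54, 2.46 and 2.50 CPM in untreated cells, 2.78, 2.89 and 2.60 CPM with GO, 2.60, 1.86 and 2.11 CPM with GO-Rg3 and 4.53, 3.70 and 3.05 CPM with GO-Rg3-DOX. The 3 GO-Rg3-DOX samples were above the 9 others, with the lowest of them close to the highest GO sample. ABCG8 rose by 0.59 on the log2 scale (SE 0.17, adjusted p = 0.0065) after GO-Rg3-DOX, and it missed the threshold whenever an untreated sample, GO-Rg3-DOX replicate 1 or GO-Rg3-DOX replicate 2 was left out (0.45 to 0.73 over the 6 fits, adjusted p of the 5 from 0.014 to 0.033), with library totals alone (0.16) or with no filter on low counts (0.50). Its partner ABCG5 (chr2:44039611-44066004, minus strand) had 1.53, 1.15 and 1.98 CPM in untreated cells, 2.51, 1.95 and 2.91 CPM with GO, 1.41, 1.45 and 1.85 CPM with GO-Rg3 and 0.948, 1.26 and 1.30 CPM with GO-Rg3-DOX. It passed in no comparison by edgeR or DESeq2, and the GO-Rg3-DOX samples overlapped the untreated ones. ABCG5 and ABCG8 share 137 exonic bases on opposite strands, so their counts may depend on how reads there were assigned.

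ABCG5 and ABCG8 are transcribed away from each other, and the 131 bases between their RefSeq starts, chr2:43838840-43838970 on the plus strand of GRCh38.p14, are shown because the partners share this stretch but only ABCG8 passed the test after GO-Rg3-DOX. The gene models given above on GRCh37 overlap, so this distance holds for the RefSeq starts alone. The stretch is written in the direction of ABCG8, and neither core motif occurs in it.
ABCG5 to ABCG8: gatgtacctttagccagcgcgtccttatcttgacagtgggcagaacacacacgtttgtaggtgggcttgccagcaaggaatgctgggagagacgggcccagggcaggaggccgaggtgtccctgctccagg
The difference between the changes of ABCG5 and ABCG8 was not tested. ABCB4 (MDR3), which moves phosphatidylcholine into bile, had 13.2, 13.2 and 13.1 CPM in untreated cells, 8.69, 10.8 and 10.9 CPM with GO, 11.8, 11.4 and 11.9 CPM with GO-Rg3 and 17.1, 16.1 and 16.4 CPM with GO-Rg3-DOX. Its GO samples were all below and its GO-Rg3-DOX samples all above the untreated ones. ABCB4 missed the threshold by edgeR (adjusted p = 0.012 after GO and 0.013 after GO-Rg3-DOX) and passed by DESeq2 (log2 fold change -0.35 with adjusted p = 0.0075 and 0.40 with adjusted p = 0.00083). ABCB11, the bile salt export pump, had 0.291 to 0.767 CPM in untreated cells and 0.247 to 0.482 CPM in treated ones, and its groups overlapped.

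**Figure D3:**
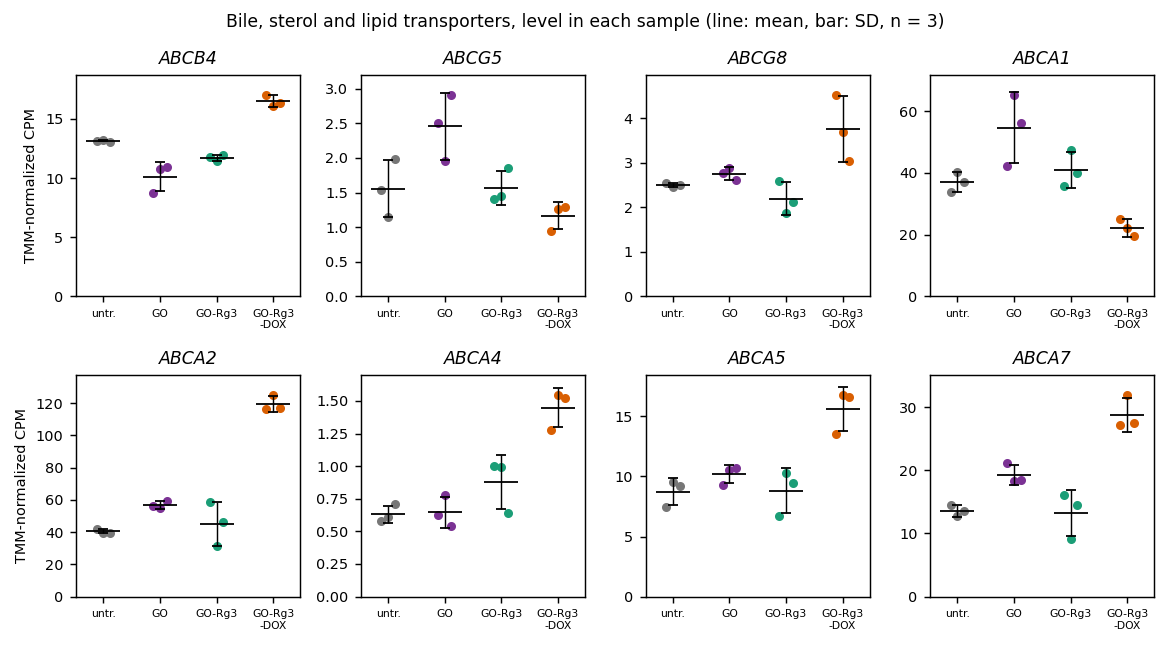
TMM-normalized CPM (y axis, from 0) of 3 bile and sterol transporters (ABCB4, ABCG5, ABCG8) and 5 cellular lipid transporters in each of the 3 samples of the 4 groups (x axis), with the mean as a line and the SD as a bar. The GO-Rg3-DOX samples of ABCA2, ABCA4, ABCA5 and ABCA7 lie above all samples of the other groups and those of ABCA1 below them.

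Cellular lipid transporters made up 14 members, of which 9 were tested. After GO-Rg3-DOX 5 of them rose and 1 fell, where 25.5% of all tested genes rose and 30.5% fell, and after GO 1 rose, where 12.1% of all did. ABCA2 (chr9:139901686-139923367, minus strand), a transporter of late endosomes and lysosomes, had the largest fitted change of the 36 members after GO-Rg3-DOX at the TMM scaling used. It had 41.9, 39.6 and 39.7 CPM in untreated cells, 56.2, 54.8 and 59.2 CPM with GO, 58.4, 31.2 and 46.2 CPM with GO-Rg3 and 116, 125.04 and 117.1 CPM with GO-Rg3-DOX. The GO-Rg3-DOX samples were far above the rest, whereas the GO-Rg3 samples spread on both sides of the untreated ones. After GO-Rg3-DOX, ABCA2 rose by 1.57 on the log2 scale (SE 0.16, adjusted p = 5.5e-07), which is 2.96-fold. The size depended on the setting, with 0.96 when the fit was corrected for the GC content of transcripts (GC content offset), where ABCA5 had 1.54, and 1.15 with library totals alone, where ABCF3 had -1.53. ABCA7 (chr19:1039996-1065571, plus strand), a phospholipid transporter, rose from 14.5, 12.7 and 13.5 CPM to 27.1, 31.9 and 27.4 CPM. All GO-Rg3-DOX samples of ABCA7 exceeded all others, and it rose by 1.09 on the log2 scale (SE 0.16, adjusted p = 3e-05), or by 0.49 with the GC content offset. ABCA4 (chr1:94458390-94586704, minus strand), known from photoreceptors as a carrier of retinaldehyde, was at a low level, with 0.582, 0.607 and 0.707 CPM in the untreated samples against 1.28, 1.55 and 1.53 CPM in the GO-Rg3-DOX samples. It rose by 1.19 on the log2 scale (SE 0.24, adjusted p = 0.0004). These 3 calls held without each single sample, but that of ABCA4 was lost with library totals alone (0.78 with adjusted p = 0.015).

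ABCA5, a transporter of lysosomes and endosomes, also rose after GO-Rg3-DOX, with 7.43, 9.53 and 9.21 CPM in untreated cells and 13.5, 16.8 and 16.6 CPM in treated ones. Its log2 fold change was 0.84, against 1.54 with the GC content offset and 0.43 with library totals alone, where it did not pass (adjusted p = 0.061). ABCA3, the phospholipid transporter of lamellar bodies, passed at 0.906, 0.934 and 0.991 CPM against 0.317, 0.352 and 0.471 CPM. Its call was lost in 5 of the 6 fits with a sample left out, all but that without untreated replicate 3 (adjusted p from 0.011 to 0.023), and also with library totals alone or the GC content offset (0.88 in both). ABCA1 (chr9:107543287-107690436, minus strand), which loads cholesterol and phospholipid onto apolipoprotein A-I, moved in opposite directions after GO and GO-Rg3-DOX. It had 33.9, 40.2 and 37.1 CPM in untreated cells, 42.3, 65.3 and 56.3 CPM with GO, 35.7, 47.3 and 39.9 CPM with GO-Rg3 and 25.1, 22.0 and 19.4 CPM with GO-Rg3-DOX. The GO-Rg3-DOX samples were below all others, and the GO samples were above the untreated ones but overlapped those of GO-Rg3. After GO, ABCA1 rose by 0.56 on the log2 scale (SE 0.15, adjusted p = 0.0085), and this call was lost without any 1 of the untreated samples, GO replicate 2 or GO replicate 3 (0.41 to 0.72, adjusted p of the 5 from 0.016 to 0.044). After GO-Rg3-DOX it fell by 0.74 on the log2 scale (SE 0.16, adjusted p = 0.0006), a value singled out after it was seen, which held without each sample. ABCG1, which moves cholesterol to high-density lipoprotein, had a mean of 0.410 ± 0.0809 CPM without treatment against 0.379 ± 0.247 CPM with GO-Rg3-DOX, and ABCA9 and ABCA10 stayed at or below 1.42 CPM in every sample. These 3 did not pass in any comparison by edgeR or DESeq2.

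The mitochondrial ABC genes, all 4 tested, split in direction. ABCB6 (chr2:220074494-220083716, minus strand), a porphyrin transporter, was overexpressed after GO and under-expressed after GO-Rg3-DOX. It had 8.78, 9.88 and 10.97 CPM in untreated cells, 17.7, 13.7 and 16.6 CPM with GO, 8.70, 10.7 and 11.3 CPM with GO-Rg3 and 5.56, 6.76 and 6.75 CPM with GO-Rg3-DOX. The GO samples were above all others and the GO-Rg3-DOX samples below all others. After GO, ABCB6 rose by 0.69 on the log2 scale (SE 0.14, adjusted p = 0.0013), which missed the threshold without untreated replicate 1 (0.61 with adjusted p = 0.01). After GO-Rg3-DOX it fell by 0.64 on the log2 scale (SE 0.15, adjusted p = 0.0014), and this was lost without untreated replicate 3 (-0.55 with adjusted p = 0.01) or GO-Rg3-DOX replicate 1 (-0.53 with adjusted p = 0.011). In GO-Rg3 against GO it fell by 0.64 on the log2 scale (SE 0.14, adjusted p = 0.0042), lost without GO replicate 1, GO replicate 3 or GO-Rg3 replicate 1 (-0.74 to -0.53 over the 6 fits, adjusted p of the 3 from 0.012 to 0.017). In a later annotation a second gene model shares 54.6% of its exonic bases, so its counts depend on the annotation used.

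ABCB10 (chr1:229652329-229694454, minus strand), an inner membrane transporter needed for heme synthesis, fell after GO, from 52.5, 53.3 and 50.4 CPM in untreated cells to 20.2, 37.9 and 36.3 CPM. The GO samples were below all others, and GO replicate 1 was lowest. ABCB10 fell by 0.72 on the log2 scale (SE 0.18, adjusted p = 0.0053) after GO, and missed the threshold whichever untreated sample was left out (-0.87 to -0.49 over the 6 fits, adjusted p of the 3 from 0.014 to 0.018), with library totals alone or in a fit of the 6 samples compared. It had 48.1 ± 5.61 CPM with GO-Rg3 and 57.1 ± 7.61 CPM with GO-Rg3-DOX (SD, n = 3). ABCB8 (chr7:150725509-150744869, plus strand), another inner membrane member, had 41.1, 36.5 and 41.4 CPM in untreated cells, 53.4, 46.8 and 50.7 CPM with GO, 52.7, 32.1 and 43.5 CPM with GO-Rg3 and 67.4, 76.6 and 76.1 CPM with GO-Rg3-DOX. It rose by 0.89 on the log2 scale (SE 0.14, adjusted p = 5.5e-05) after GO-Rg3-DOX, where its samples were above all others, but did not pass with library totals alone (0.48 with adjusted p = 0.015).

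**Figure D4:**
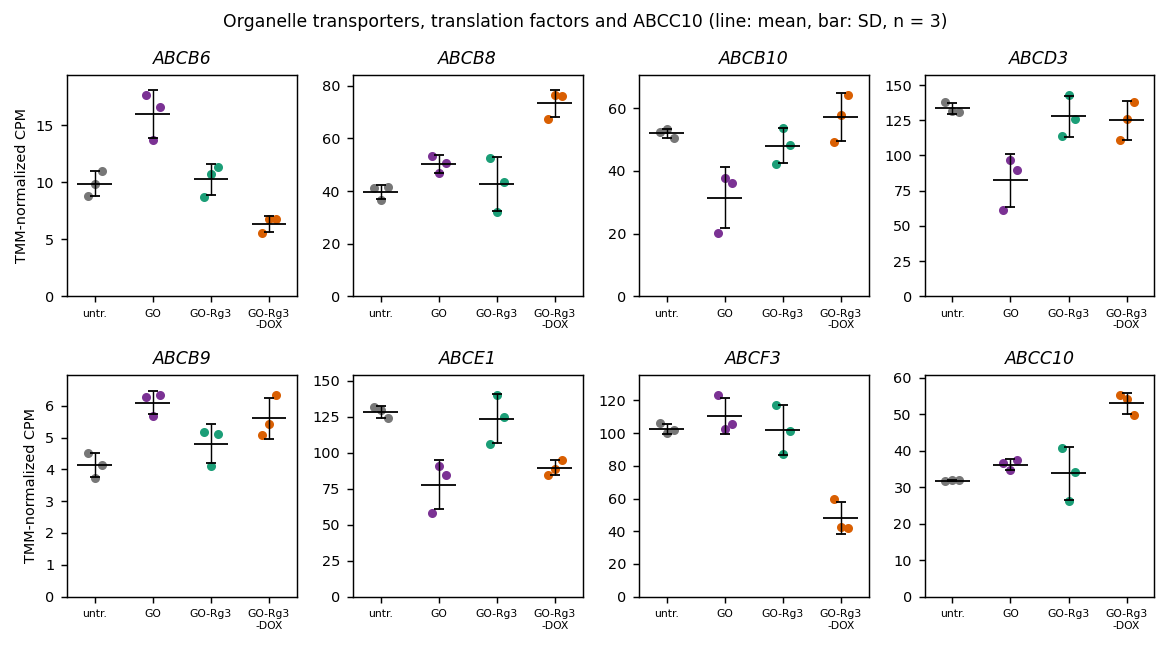
TMM-normalized CPM (y axis, from 0) of ABC genes of the mitochondria (ABCB6, ABCB8, ABCB10) and of peroxisomes and lysosomes (ABCD3, ABCB9), of 2 translation factors (ABCE1, ABCF3) and of ABCC10 in each of the 3 samples of the 4 groups (x axis), with the mean as a line and the SD as a bar. The GO samples of ABCB10, ABCD3 and ABCE1 lie below the untreated ones with GO replicate 1 lowest, and the GO-Rg3-DOX samples of ABCF3 lie below all others.

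Peroxisomal and lysosomal members numbered 5, of which 4 were tested. ABCD3 (PMP70, chr1:94883945-94984222, plus strand), which imports branched-chain fatty acids and bile acid precursors into peroxisomes, had 138, 132 and 131 CPM in untreated cells, 61.1, 96.5 and 89.4 CPM with GO, 114, 143 and 126.2 CPM with GO-Rg3 and 110.9, 125.7 and 138 CPM with GO-Rg3-DOX. The GO samples were below all others. ABCD3 fell by 0.70 on the log2 scale (SE 0.15, adjusted p = 0.0015) after GO and rose by 0.63 on the log2 scale (SE 0.15, adjusted p = 0.0055) in GO-Rg3 against GO, the latter lost without GO replicate 3, GO-Rg3 replicate 2 or GO-Rg3 replicate 3 (0.46 to 0.76 over the 6 fits, adjusted p of the 3 from 0.013 to 0.023). The size of the fall after GO depended on the setting. Its log2 fold change ran from -0.8 to -0.3 over the 9 other settings tried, and it passed in each.

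ABCB9 (TAPL, chr12:123405498-123466196, minus strand), the lysosomal peptide transporter, had 4.52, 3.74 and 4.15 CPM in the untreated samples against 6.27, 5.67 and 6.34 CPM in the GO samples. It had 5.19, 4.11 and 5.12 CPM with GO-Rg3 and 5.07, 5.43 and 6.33 CPM with GO-Rg3-DOX. Its GO and GO-Rg3-DOX samples were above all untreated ones. After GO-Rg3-DOX it passed by DESeq2 (log2 fold change 0.51, adjusted p = 0.0028) but not by edgeR (0.44, adjusted p = 0.013). After GO it rose by 0.55 on the log2 scale (SE 0.14, adjusted p = 0.0052). This call was lost without any 1 of the untreated samples, GO replicate 1 or GO replicate 3 (0.49 to 0.62 over the 6 fits, adjusted p of the 5 from 0.01 to 0.03). On the other strand, 20.7% of the exonic bases of ABCB9 overlap a long noncoding RNA gene, 12.5% overlap OGFOD2 and 11.97% overlap ARL6IP4. Its reads there cannot be told from theirs if strand was not used in counting. ABCD4, which takes part in the release of cobalamin from lysosomes, had 45.6 ± 3.97 CPM in untreated cells, 47.4 ± 2.87 CPM with GO, 41.6 ± 1.85 CPM with GO-Rg3 and 50.8 ± 6.23 CPM with GO-Rg3-DOX, and did not pass by edgeR or DESeq2.

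The translation factors, all 4 tested, held no member that passed in the higher direction against untreated cells. Of all tested genes, 12.1% were higher after GO and 25.5% after GO-Rg3-DOX. ABCF3 (chr3:183903883-183911800, plus strand), a member without membrane domains that is linked to translation, had 106, 99.997 and 102.1 CPM in untreated cells, 123, 102.7 and 105 CPM with GO, 117.4, 87.2 and 101.2 CPM with GO-Rg3 and 59.5, 42.5 and 42.02 CPM with GO-Rg3-DOX. The GO-Rg3-DOX samples were well below the rest, with replicate 1 the highest of them. ABCF3 fell by 1.10 on the log2 scale (SE 0.14, adjusted p = 5.8e-06), a 2.14-fold lower level, and was the member with the most marked fall. This call held without each sample and in all 9 other settings tried. ABCE1 (chr4:146019440-146050676, plus strand), which splits ribosomes after termination, had 132, 129.6 and 124 CPM in untreated cells, 58.4, 90.6 and 84.7 CPM with GO, 106, 140.2 and 124.7 CPM with GO-Rg3 and 84.6, 88.8 and 95.1 CPM with GO-Rg3-DOX. Its GO-Rg3-DOX samples and all but 1 of its GO samples lay between 84.6 and 95.1 CPM, below the untreated and GO-Rg3 samples.

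After GO, ABCE1 fell by 0.72 on the log2 scale (SE 0.14, adjusted p = 0.001), and in GO-Rg3 against GO it rose by 0.67 on the log2 scale (SE 0.14, adjusted p = 0.0035), lost without GO-Rg3 replicate 2 or GO-Rg3 replicate 3 (0.49 to 0.79 over the 6 fits, adjusted p of 0.015 and 0.016). The log2 fold change of ABCE1 after GO ran from -0.82 to -0.35 over the 9 other settings tried, and it passed in each. After GO-Rg3-DOX, ABCE1 fell by 0.52 on the log2 scale (SE 0.14, adjusted p = 0.0044), which was lost in each of the 6 fits with a sample left out (-0.55 to -0.47, adjusted p from 0.01 to 0.025) and with RLE scaling (-0.45 with adjusted p = 0.01), and turned to 0.10 with adjusted p = 0.2 when fold changes were corrected for GC content. ABCF1, which acts in initiation, had 188 ± 3.63 CPM in untreated cells, 216 ± 21.2 CPM with GO, 202 ± 16.5 CPM with GO-Rg3 and 205 ± 26.9 CPM with GO-Rg3-DOX. ABCF2 had 142 ± 2.82, 125.3 ± 5.01, 151 ± 12.5 and 156 ± 11.3 CPM. Neither ABCF1 nor ABCF2 passed in any comparison by edgeR or DESeq2.

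Of the 7 other members, 3 were tested and 1 passed, too few to set against the shares of all tested genes. ABCC10 (MRP7, chr6:43395104-43418165, plus strand), a pump of lipophilic drugs, had 31.6, 31.9 and 31.9 CPM in untreated cells, 36.5, 34.6 and 37.4 CPM with GO, 40.8, 26.3 and 34.1 CPM with GO-Rg3 and 55.2, 54.1 and 49.7 CPM with GO-Rg3-DOX. The GO-Rg3-DOX samples were above all others, and it rose by 0.74 on the log2 scale (SE 0.13, adjusted p = 0.00011) in them, which was lost with library totals alone (0.32 with adjusted p = 0.059). ABCC9, the sulfonylurea receptor of a potassium channel, had 1.38 to 2.30 CPM in untreated cells and 0.705 to 2.35 CPM in treated ones, and ABCC11 stayed at or below 0.503 CPM in every sample. The 10 untested members were ABCA6, ABCA8, ABCA12, ABCA13, ABCG4, ABCD2, ABCB5, ABCC8, ABCC12 and ABCC13, with at most 10 counts in any sample. None of them was at 0 in every sample. ABCG4, a sterol transporter, had 0 counts in all 9 untreated, GO and GO-Rg3 samples and 3, 6 and 2 counts after GO-Rg3-DOX, and a count of 0 allows up to 3 counts, so no fold is given. ABCC8 and ABCC13 likewise had their few counts after GO-Rg3-DOX (at most 2 per sample), and ABCC12 had 1 count in untreated replicate 1. The reads carried no molecular identifiers, so these limits cover counting error only.

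Fold changes of the members went with the GC content of their transcripts, as those of all genes did. Spearman's rho between log2 fold change and GC content was 0.56 over the 36 members and 0.43 over 16622 genes after GO. It was 0.42 and 0.37 after GO-Rg3-DOX, 0.35 and 0.20 after GO-Rg3, and -0.41 and -0.44 in GO-Rg3 against GO. These are correlations across genes of the same libraries, and genes are not independent replicates. The GO-low members ABCD3, ABCE1, ABCB10, ABCC4 and ABCC2 had transcripts of 37.4% to 45.5% GC and ABCC5 of 49.2% GC, and ABCA2 and ABCA7, high after GO-Rg3-DOX, had 63.7% to 63.8%. ABCF3 at 55.6% GC and ABCA5 at 36.1% GC changed against this trend. With an offset for GC content in the fit, 9 of the 10 calls after GO were kept (ABCB9 was lost), 15 of 17 after GO-Rg3-DOX (ABCA3 and ABCE1 were lost) and 5 of 7 in GO-Rg3 against GO (ABCB6 and ABCC1 were lost).

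**Figure D5:**
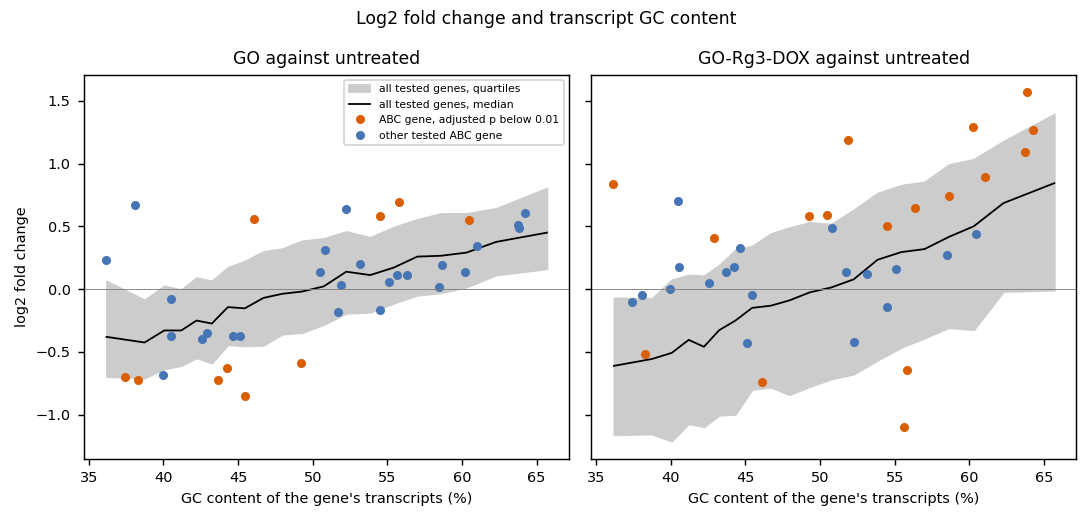
Log2 fold change (y axis) against the GC content of the gene's transcripts in percent (x axis) for GO (left) and GO-Rg3-DOX (right) against untreated cells, with the median and quartiles of all tested genes in 20 bins and the 36 tested ABC genes as points, orange where the adjusted p was below 0.01. The median line climbs with GC content in both panels, and ABCA5 and ABCF3 lie away from it after GO-Rg3-DOX.

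Genes that act with the ABC transporters were counted from lists made by function. Of all tested genes, 12.1% were higher and 15.4% lower after GO, 25.5% and 30.5% after GO-Rg3-DOX and 7.33% and 6.25% in GO-Rg3 against GO, and nothing is read from counts in lists of 3 to 13 genes beside these shares. Of 3 ABC proteins with other symbols, the peptide transporter TAP2 rose after GO (log2 fold change 0.68) and GO-Rg3-DOX (1.30), TAP1 rose after GO-Rg3-DOX (1.88) and the chloride channel CFTR fell after GO (-0.96). TAP1 had only 0.106 to 0.192 CPM in untreated cells and 0.453 to 0.755 CPM after GO-Rg3-DOX, so its fold change rests on few counts. Of 7 hepatocyte uptake transporters, 6 were tested. After GO, 2 were higher (SLCO2B1 and SLC22A3) and 1 lower (SLCO1B3), after GO-Rg3-DOX 4 were higher (among them SLCO1B1, SLCO2B1 and SLC22A7) and 0 lower. In GO-Rg3 against GO, 1 was higher (SLCO1B3) and 1 lower (SLC22A3). SLCO2B1, the most abundant of those that passed, had 102.01, 102.1 and 104 CPM in untreated cells, 117.9, 142 and 146 CPM with GO and 154, 155 and 156 CPM with GO-Rg3-DOX.

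Of 13 transcription regulators of ABC genes, all tested, 4 were higher and 3 lower after GO, 2 higher and 6 lower after GO-Rg3-DOX, and 2 higher and 2 lower in GO-Rg3 against GO, beside the shares of all genes given above. NFE2L2, which encodes NRF2, had 251, 255 and 251 CPM in untreated cells, 106, 130.2 and 117.04 CPM with GO, 177, 216 and 202 CPM with GO-Rg3 and 73.5, 76.4 and 79.8 CPM with GO-Rg3-DOX, with log2 fold changes of -1.10 after GO and -1.72 after GO-Rg3-DOX. AHR, the xenobiotic receptor, fell by 0.62 on the log2 scale after GO and by 2.90 after GO-Rg3-DOX. The bile acid receptor NR1H4 had log2 fold changes of -0.86 and -1.38 after GO and GO-Rg3-DOX. The hepatocyte factor HNF4A was 0.63 higher on the log2 scale after GO and fell by 1.02 after GO-Rg3-DOX, and the pregnane X receptor NR1I2 had 0.46 and -0.50. Whether any of these changes bears on the ABC genes was not tested.

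The other targets of these regulators moved as follows. Of 4 AHR targets, 3 fell with GO, 1 fell with GO-Rg3 and 2 fell with GO-Rg3-DOX, where 15.4%, 0.105% and 30.5% of all tested genes fell. CYP1A1, the AHR-induced monooxygenase, had 197, 201 and 208 CPM in untreated cells, 5.25, 4.25 and 3.96 CPM with GO, 58.8, 57.7 and 58.3 CPM with GO-Rg3 and 88.6, 86.5 and 90.4 CPM with GO-Rg3-DOX. No sample of CYP1A1 in a group overlapped those of another, and its log2 fold changes against untreated cells were -5.50, -1.79 and -1.19. Of 4 tested NRF2 targets, 3 fell after GO (NQO1, GCLM and TXNRD1) and 2 after GO-Rg3-DOX (GCLM and HMOX1). Of 4 LXR targets other than the members ABCA1, ABCG1, ABCG5 and ABCG8, 1 fell after GO (SMPDL3A) and 3 rose after GO-Rg3-DOX, namely SREBF1, MYLIP (log2 fold change 1.28) and LPCAT3 (0.85). In the same samples ABCA1, itself an LXR target, fell and ABCG8 rose. After GO-Rg3, CYP1A1 was the 1 gene of 34 tested in all of these lists that passed by edgeR, with 7 at an unadjusted p below 0.05 and 2 passing by DESeq2. In GO-Rg3 against GO, 1 AHR target (CYP1A1) and 2 NRF2 targets (NQO1 and GCLM) were higher.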

How the data were processed

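Stranded mRNA libraries were made by the authors, whose reads went through the NGI-RNAseq pipeline against GRCh37. Their deposited table gives raw, unscaled featureCounts counts of 63677 Ensembl genes in 12 samples. The annotation release and whether strand was used in counting are not given in the sources used here, so overlapping genes and near-identical copies are named as uncertain. Samples were grouped by their labels, 3 per group. Genes were tested where 3 or more samples held 10 or more counts (17092). Counts were scaled by TMM, and all 12 samples were fitted in 1 model with the quasi-likelihood test of edgeR 4.0.16 (R 4.3.3, limma 3.58.1), with Benjamini-Hochberg adjustment over all tested genes in each comparison. A gene passed at an adjusted p below 0.01; 2-fold means an absolute log2 fold change above 1. The authors used DESeq2, which served as an alternative (version 1.42.0). Levels are TMM-normalized CPM; exon length, GC content and GRCh37 positions came from GENCODE lifted to GRCh37, with GC values for 97.3% of the tested genes. The fit was tested on simulated data, and summaries used Python 3.11.15 with pandas 2.3.3.

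The ABC genes, their role groups and the other lists were chosen with earlier results of these data known. Statistics are given for members that passed: every drug pump and bile or sterol transporter, and in each other role group up to 3 members with the largest absolute log2 fold change and a mean of at least 1 CPM. Other members are given by levels, and a few genes that enter the counts are not reported here. Each result was recomputed with DESeq2, with RLE scaling or library totals alone, with no filter (35604 genes) or one of 10 counts in every sample (13706 genes), with a replicate block, with a loess offset for GC content (span 0.5), alone or beside that block, with fits of the 6 samples of a comparison, and without each sample in turn. At these depths 3 counts were taken as the limit that a count of 0 allows. Promoter windows came from RefSeq on GRCh38.p14 and were not combined with GRCh37 positions.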

Additional observations from a re-analysis of the deposited data

How the results depend on the processing

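Scaling by library totals alone moved the all-gene median (log2 fold change) from 0.01 to -0.11 after GO, from -0.06 to -0.47 after GO-Rg3-DOX and from -0.02 to 0.12 in GO-Rg3 against GO, and the share of passing genes that were higher from 44.01% to 30.6%, from 45.5% to 22.8% and from 54.0% to 71.2%. Under it 1 member was higher after GO and 3 after GO-Rg3-DOX, 0 were lower in GO-Rg3 against GO, and ABCB1 after GO-Rg3-DOX had a log2 fold change of -0.01 (adjusted p = 0.96). With the GC content offset, with or without the replicate block, 1 member passed 2-fold after GO and 3 after GO-Rg3-DOX, and ABCE1 after GO-Rg3-DOX turned to 0.10 (adjusted p = 0.2). Without a filter 8 members were higher in GO-Rg3 against GO, and with only the 6 samples compared 1 was higher and 0 were lower. Leaving out 1 sample gave 1 to 3 higher members after GO, 2 to 3 lower members after GO-Rg3-DOX, and 1 to 6 higher and 0 to 3 lower members in GO-Rg3 against GO. The cause of these differences was not tested. A fit of the 6 samples compared kept 7 of the 10 calls after GO, all 17 after GO-Rg3-DOX and 1 of 7 in GO-Rg3 against GO. RLE scaling kept 10, 16 and 7 of the 10, 17 and 7 calls after GO, after GO-Rg3-DOX and in GO-Rg3 against GO, and DESeq2 kept all of them. Over all genes, GO-Rg3 against untreated cells gave 10 higher and 18 lower genes by edgeR, 72 and 259 by DESeq2, 66 and 420 without a filter, 18 and 66 with the replicate block and 15 and 72 with only the 6 samples compared, and no member among them.

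The labels number the replicates alike in every group without saying what the numbers mean. Deviations from the group means correlated at 0.091 on average between same-numbered samples (-0.024 to 0.25 over 18 pairs) and at -0.045 between others, and some same-numbered samples did not deviate together. As no block is named, the main fit did not take the numbers as pairs, and a block on them served as an alternative. That 10 of 12 samples correlated best with a sample of their own number is a hint from the data, not from the design. With the replicate block 6 members were higher and 9 lower after GO, 14 and 4 after GO-Rg3-DOX, 7 and 2 in GO-Rg3 against GO and 0 and 0 after GO-Rg3, and no call was lost. The calls over all 17092 tested genes also grew with it. After GO they went from 2074 to 2601 higher and from 2639 to 3190 lower. They went from 4350 to 4617 and from 5214 to 5477 after GO-Rg3-DOX. In GO-Rg3 against GO they went from 1253 to 1810 and from 1068 to 1561.

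Members under 1 CPM rest on few counts, and changes in the 10 untested members were not tested at the filter used.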
